A study of Mus musculus with 1824 samples.

Results

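The genes described here are 9 genes of mouse retinoic acid metabolism and response, found among 55487 genes of a single-cell count table by their Ensembl identifiers. They are Stra6 (ENSMUSG00000032327, chr9:58063788-58153996), Aldh1a2 (ENSMUSG00000013584, chr9:71215789-71296243), Dhrs3 (ENSMUSG00000066026, chr4:144892827-144928209), Crabp1 (ENSMUSG00000032291, chr9:54764748-54773110), Crabp2 (ENSMUSG00000004885, chr3:87948666-87953376), Rara (ENSMUSG00000037992, chr11:98927818-98974942), Rarb (ENSMUSG00000017491, chr14:16430839-16819156), Rarg (ENSMUSG00000001288, chr15:102234938-102257517) and Cyp26a1 (ENSMUSG00000024987, chr19:37697798-37701536), all protein-coding, with coordinates on GRCm38. The cells came from chimaeric mouse embryos, in which embryonic stem cells lacking Tet1, Tet2 and Tet3 and marked with H2B-tdTomato had been injected into C57BL/6J host blastocysts and carried by CD1 recipients. The labels give the strain only as CD1 and the tissue only as an E7.5 or E8.5 embryo, which leaves the 2 stages as groups and gives no way to set knockout against host cells. There were 11 plates of 96 wells at E7.5, 4 of them named for single embryos, and 8 such plates at E8.5. Knockout cells come from a single engineered line and share their embryos with wild-type host cells, and according to the study's methods cells were stained for surface markers of blood and endothelial lineages before sorting, with no gate given for the single cell.

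Retinoic acid is made from vitamin A in a pair of oxidation steps, and in the early embryo Aldh1a2 is the main enzyme of the second. Cells take up retinol from its carrier protein through Stra6, Dhrs3 turns retinaldehyde back into retinol, Crabp1 and Crabp2 bind retinoic acid in the cytoplasm, and Cyp26a1 oxidises it to inactive products. Retinoic acid acts by binding the nuclear receptors Rara, Rarb and Rarg, which sit on DNA with a retinoid X receptor, and the embryo shapes its gradients by placing synthesis in trunk mesoderm and clearance at the anterior and caudal ends.

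The promoter sequences of the receptor gene Rarb and of the clearing enzyme gene Cyp26a1 are shown because, of the members with a sequence, these alone held a pair of receptor half-sites close to the start. Windows of 300 bases, 250 before and 50 after a transcript start, were taken from RefSeq on GRCm38.p6, and 8 of the 9 members had 1 or more, 17 in all, Crabp2 being the exception. The half-sites AGGTCA or AGTTCA or GGTTCA or GGGTCA were searched on both strands as direct repeats spaced by 1, 2 or 5 bases. Both matches had a spacing of 5 bases, which 32 of 32851 windows held (0.0974%). A spacing of 1 base was found in 0.222% and of 2 bases in 0.268% of windows, and in no member. The 250 bases before each start are printed from 5′ to 3′ on the strand of the gene, with the half-sites in capitals. The Rarb start lies 243680 bases inside the gene as given above, at the start of a shorter transcript, and that of Cyp26a1 10 bases inside. The sequences lie at chr14:16575477-16575726 on the minus strand for Rarb and at chr19:37697558-37697807 on the plus strand for Cyp26a1.
Rarb: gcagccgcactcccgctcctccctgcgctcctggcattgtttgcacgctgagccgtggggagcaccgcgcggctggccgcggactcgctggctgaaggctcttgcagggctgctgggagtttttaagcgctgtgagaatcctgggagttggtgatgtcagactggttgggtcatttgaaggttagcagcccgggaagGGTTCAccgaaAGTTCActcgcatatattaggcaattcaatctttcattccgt
Cyp26a1: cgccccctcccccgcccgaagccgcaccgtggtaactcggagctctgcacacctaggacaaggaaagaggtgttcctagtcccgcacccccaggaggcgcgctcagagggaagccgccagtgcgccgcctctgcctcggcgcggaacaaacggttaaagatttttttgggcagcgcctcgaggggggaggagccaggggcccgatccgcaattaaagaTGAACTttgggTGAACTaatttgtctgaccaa
In Rarb the match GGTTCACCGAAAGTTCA has the form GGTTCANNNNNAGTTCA and runs from 53 to 37 bases before the start. In Cyp26a1 the match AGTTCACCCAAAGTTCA, of the form AGTTCANNNNNAGTTCA, is on the opposite strand, from 32 to 16 bases before the start. A match is a description of these letters, and no binding was measured in the files used here.

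Of the 1824 wells, 1634 passed the limits of at least 100000 reads, at most 10% mitochondrial reads and at most 20% ribosomal protein reads. They were between 57 and 94 of the 96 wells of a plate at E7.5 and between 76 and 92 at E8.5. At E7.5 the median depth of these cells was 742762 reads, at E8.5 it was 575073 reads, and the whole range ran from 100941 to 6162793 reads. Levels are given as CPM, the reads of a gene per 1000000 reads in the summed counts of a group of cells, and levels of different genes are compared only per kilobase of exon (RPKM). Intervals are 95% exact Poisson intervals of the summed reads or exact Clopper-Pearson intervals of a share of cells. The reads carry no molecular identifiers, so both cover counting error only. Clustering without the members and the other retinoid genes gave 24 clusters, of which 23 were named from marker genes into 16 classes, and 31 sums of a cluster at one stage held 10 or more cells. Cells of erythroid-like, blood progenitor-like, megakaryocyte-like and myeloid-like clusters and of a haematoendothelial-like cluster (cluster 6) made up 86.02% of E7.5 lane plate 1 and between 80.4% and 100% of E8.5 plates 1, 2, 5 and 6. On the other plates they made up at most 24.4%. Haematoendothelial-like cells of all clusters, most of them outside that count, were 67.5% of E8.5 plate 3, 54.9% of E8.5 plate 4 and 54.5% of E7.5 lane plate 2.

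Across the stages, the binding proteins, Aldh1a2, Rarb and Dhrs3 had higher levels at E8.5 and Cyp26a1 had a lower level. Each stage is a single sample, because no animal is named at E8.5, so the differences have no test and plates serve only to show the spread. In such sums, fewer cells of a type and less RNA per cell cannot be told apart. The parts of sort gate, genotype and library protocol in the stage ratios were not tested. Crabp2 went from 33.9 CPM to 155.5 CPM, a log2 ratio of 2.17 with 1 CPM added, and Crabp1 from 48.3 to 180 CPM (1.87). Rarb differed by 1.43 on the same scale (1.46 and 5.62 CPM), Aldh1a2 by 1.31 (7.70 and 20.5 CPM) and Dhrs3 by 1.09 (10.1 and 22.6 CPM). The level of Cyp26a1 was 112.9 CPM at E7.5 and 21.4 CPM at E8.5, a log2 ratio of -2.34. Stra6, Rara and Rarg had log2 ratios of 0.93, 0.29 and 0.04. Stra6 went from 4.36 to 9.24 CPM, and with nothing added it was the sixth member past 2-fold. At a limit of 2-fold with 1 CPM added, 5 of the 9 members were higher at E8.5, where 7.49% of 15328 genes were, and 1 was lower, where 9.35% of genes were. The median log2 ratio was 1.09 over the members and 0.05 over all genes. For all 9 members the range of the E7.5 plates overlapped that of the E8.5 plates, and the share of all genes with such an overlap was not counted.

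**Figure D1:**
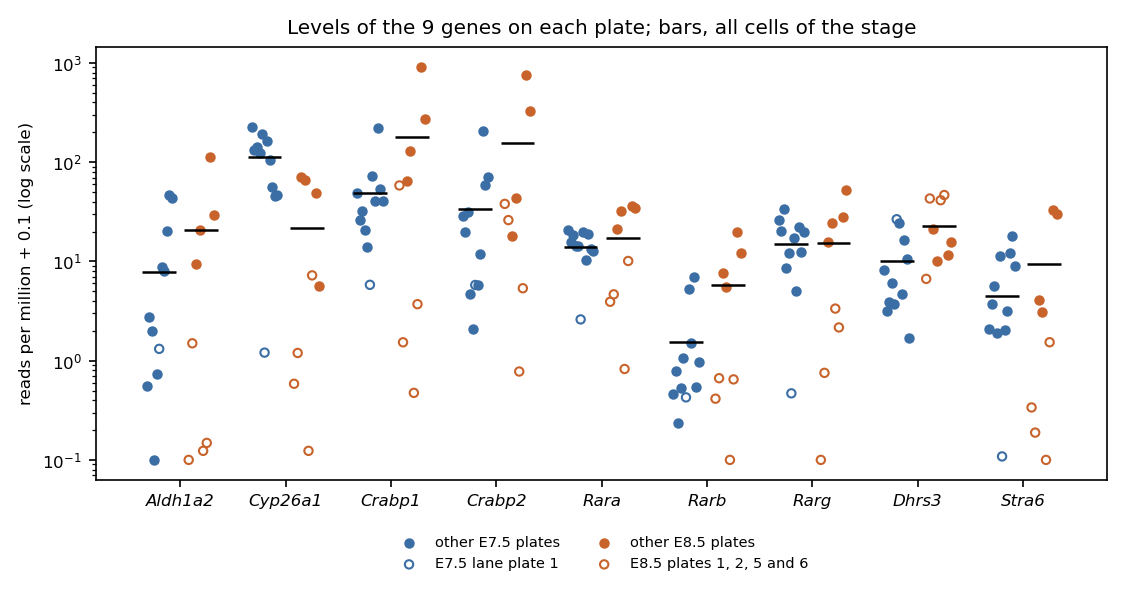
CPM plus 0.1 on a log scale for the 9 genes, each point 1 plate, E7.5 in blue (11 plates) and E8.5 in orange (8 plates). Open points are E7.5 lane plate 1 and E8.5 plates 1, 2, 5 and 6, and bars are all cells of a stage. The ranges of the stages overlap for every gene, and Cyp26a1 at E8.5 runs from 0.02 to 71.3 CPM before 0.1 is added.

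The plates differed within a stage by more than the stages did. Without E7.5 lane plate 1 and E8.5 plates 1, 2, 5 and 6, an alternative chosen after seeing the data, the ratios of all members but Dhrs3 shifted upward. E8.5 plates 3 and 4 and E7.5 lane plate 2, with mostly haematoendothelial-like cells, were kept. Aldh1a2 then had 8.77 CPM at E7.5 and 43.8 CPM at E8.5, a log2 ratio of 2.20, and Cyp26a1 had 131.3 and 43.7 CPM, a log2 ratio of -1.57. The ratio of Stra6 became 1.74, and those of Rara and Rarg 0.95 and 0.84. Dhrs3 was at 7.397 and 15.03 CPM, with a ratio of 0.93. Leaving out E8.5 plate 7 alone brought the log2 ratio of Aldh1a2 down to 0.09, that of Crabp1 to 0.73 and that of Crabp2 to 1.12, and the number of members at least 2-fold higher from 5 to 2.

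Per kilobase, Crabp1 (60.3 RPKM) and Cyp26a1 (56.9 RPKM) were the highest of the members at E7.5, followed by Crabp2 with 25.6 RPKM. Rarg, Dhrs3, Aldh1a2 and Rara followed between 3.14 and 3.51 RPKM, a difference smaller than the range of any of them over plates, and Stra6 (0.75 RPKM) and Rarb (0.28 RPKM) were lowest. At E8.5 the order was Crabp1 (223.97 RPKM), Crabp2 (117.6 RPKM), Cyp26a1 (10.8 RPKM), Aldh1a2 (9.07 RPKM), Dhrs3 (7.72 RPKM), Rara (3.90 RPKM), Rarg (3.61 RPKM), Stra6 (1.59 RPKM) and Rarb (1.07 RPKM). Since the plate ranges of neighbours in this order overlap widely, the order holds for the pooled cells only.

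The gene for retinol uptake was detected in few cells. After every cell had been thinned to 100000 reads, Stra6 had a read in 8.89% of E7.5 cells and 8.27% of E8.5 cells. Over the E7.5 plates Stra6 ran from 0.00837 CPM through a median of 3.59 CPM to 17.8 CPM, and over the E8.5 plates from 0 through 2.21 to 32.8 CPM. Plates 7 and 8 of E8.5, at 32.8 and 29.9 CPM, stood above all other plates of both stages. By cluster, Stra6 was highest in caudal epiblast- and neuromesodermal-like cells (cluster 15), with 65.8 CPM at E8.5 (interval 63.002 to 68.7, 41 cells) and 44.02 CPM at E7.5 (39.7 to 48.6, 14 cells). Pharyngeal and cardiac mesoderm-like cells (cluster 10) followed with 58.5 CPM at E8.5 and 41.5 CPM at E7.5, the latter resting to 62.7% on 1 cell. No read was found in 8 of the 31 cluster sums.

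Aldh1a2, the enzyme that makes retinoic acid, was highest in pharyngeal and cardiac mesoderm-like cells, and its level differed widely between mesoderm-like clusters. The E7.5 plates ran from 0 CPM (embryo 4) through a median of 2.65 CPM to 46.4 CPM (lane plate 5), and lane plates 6 and 4 had 43.6 and 20.01 CPM. Those 3 plates lay above the remaining E7.5 plates, none of which passed 8.73 CPM. At E8.5 the level was 0 CPM on plate 1, 1.40 on plate 2, 9.29 on plate 3, 20.6 on plate 4, 0.0234 on plate 5, 0.0483 on plate 6, 112.5 on plate 7 and 29.4 CPM on plate 8. The highest and lowest plates thus differed within each stage far more than the pooled stages did.

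By cluster, the highest Aldh1a2 level was in pharyngeal and cardiac mesoderm-like cells (cluster 10) at E8.5, with 214.97 CPM (209.7 to 220.3, 49 cells) or 94.95 RPKM. The same cluster had 58.4 CPM at E7.5 (53.7 to 63.4, 13 cells). Over the 4 plates with at least 5 such cells at E8.5, Aldh1a2 was at 69.4 CPM on plate 3, 63.001 on plate 4, 361.8 on plate 7 and 166.9 CPM on plate 8, so it was present on every plate while its level spread more than 5-fold. One cell gave 34.6% of the reads, and the level without it was 144.5 CPM. Within the cluster 42.9% of cells (28.8% to 57.8%) had a read after thinning. The cluster had the cardiac genes Myl7 and Tnnt2 at 760.4 and 289.7 CPM at E8.5. Of the paraxial mesoderm markers, Meox1 was at 82.2, Foxc2 at 51.9, Tcf15 at 22.99 and Tbx18 at 14.3 CPM. The others, Dll1, Foxc1, Uncx and Msgn1, were at most at 6.12 CPM. In a split made after seeing the values, 12 cells with more paraxial than pharyngeal and cardiac markers had 418.9 CPM of Aldh1a2, of which 1 cell gave 78.9%, and without that cell 100.6 CPM. The 29 cells with more pharyngeal and cardiac markers had 154.5 CPM, and 98.5 CPM without their own highest cell.

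Nascent mesoderm-like cells fell into a pair of clusters with different levels of Aldh1a2. Cluster 5, whose leading genes include Tbx6, Dll1 and Nkx1-2, had 51.4 CPM (49.5 to 53.4, 95 cells), with 70.2 and 70.1 CPM on lane plates 5 and 6 and no read on lane plate 4. Cluster 0, led by Mesp1, Mixl1 and Eomes, had 2.65 CPM over 130 cells and at most 6.09 CPM on any plate. The clusters came from different plates, cluster 5 from lane plates and cluster 0 from chimera plate 3 and the named embryos, so the plate and the cell state cannot be told apart here. Neural ectoderm-like cells (cluster 16) had 40.3 CPM at E8.5 and 30.9 CPM at E7.5, caudal epiblast- and neuromesodermal-like cells 40.2 and 9.87 CPM, and extraembryonic mesoderm- and allantois-like cells (cluster 19) 36.5 CPM at E8.5. One cell gave 50.99% of the reads of neural ectoderm-like cells and 49.96% of those of caudal-like cells at E8.5, and 96.6% of those of caudal-like cells at E7.5. Epiblast-like cells had 0.40 CPM. Of the 31 sums, 6 had no read of Aldh1a2, among them visceral and yolk sac endoderm-like cells at both stages and megakaryocyte-like cells. For the 26 visceral endoderm-like cells at E7.5, a count of 0 allows a level of up to 0.18 CPM, 3 counts of their total.

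**Figure D2:**
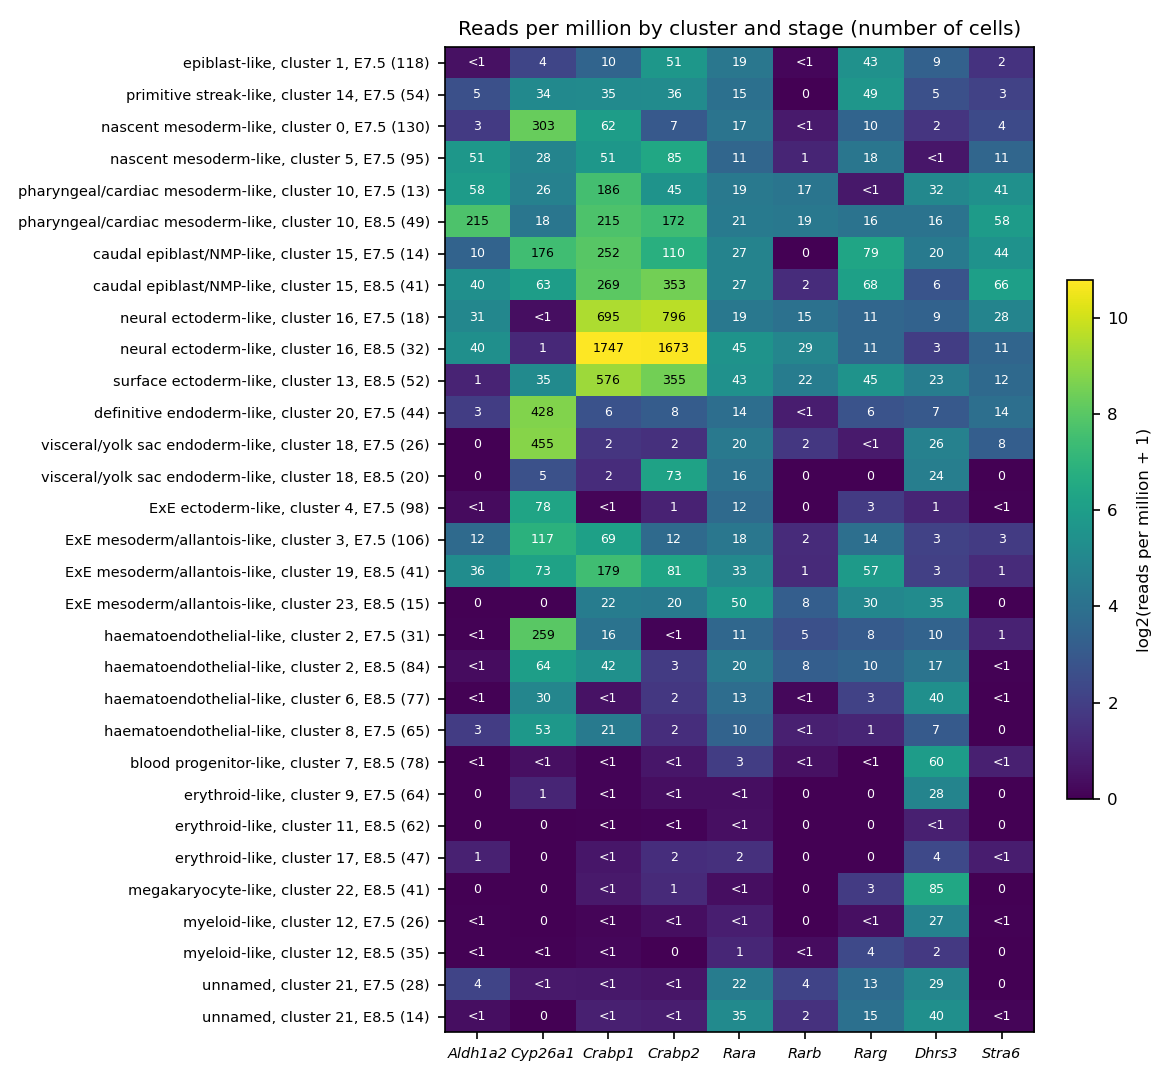
Levels (CPM) of the 9 genes in each cluster and stage with 10 or more cells, coloured by log2(CPM + 1) and with the number of cells in brackets. Aldh1a2 peaks at 214.97 CPM in pharyngeal and cardiac mesoderm-like cells at E8.5, Crabp1 and Crabp2 at 1747 and 1673 in neural ectoderm-like cells, Cyp26a1 at 454.9 in visceral endoderm-like cells at E7.5, and Dhrs3 at 85.1 in megakaryocyte-like cells.

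Dhrs3, the reductase that opposes the first oxidation step, had its highest levels in megakaryocyte-like and blood progenitor-like cells of E8.5. It ran from 1.60 through 6.01 to 26.5 CPM over the E7.5 plates and from 6.57 through 18.4 to 46.5 CPM over the E8.5 plates. The highest E7.5 values were those of lane plate 1 (26.5 CPM, or 17.4 CPM without its highest cell) and lane plate 2 (24.4 CPM, or 21.99 CPM without its own). Erythroid-like cells were 64.5% of lane plate 1, and haematoendothelial-like cells were 54.5% of lane plate 2. The highest E8.5 values were those of plates 6, 2 and 5 (46.5, 42.9 and 41.2 CPM). On these plates the blood-like clusters and cluster 6 made up at least 90% of cells. Plate 1, with 80.4% of its cells in those clusters, was the lowest E8.5 plate (6.57 CPM). Megakaryocyte-like cells had 85.1 CPM (81.1 to 89.2, 41 cells, all on plate 5), with a read in 73.2% of cells after thinning (57.1% to 85.8%). Blood progenitor-like cells followed with 60.1 CPM (58.1 to 62.3, 78 cells), at 61.4 and 61.98 CPM on the plates with at least 5 such cells, and cluster 6 with 40.3 CPM, or 26.4 CPM without its highest cell. Erythroid-like cells at E8.5 had under 1 CPM in cluster 11 and 4 CPM in cluster 17, so not all blood lineages were high. Dhrs3 had reads in all 31 sums, and its highest level outside the blood-like, haematoendothelial-like and unnamed clusters was 35.4 CPM in extraembryonic mesoderm-like cells of cluster 23. The unnamed cluster 21 had 39.9 CPM at E8.5, of which 1 cell gave 49.2%.

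The binding proteins Crabp1 and Crabp2 were highest in ectoderm-like cells. Over the E7.5 plates Crabp1 ran from 5.71 through 40.6 to 222.8 CPM and Crabp2 from 1.96 through 19.8 to 207.7 CPM. Over the E8.5 plates Crabp1 ran from 0.37 through 61.5 to 916.4 CPM and Crabp2 from 0.68 through 31.9 to 758.3 CPM. Lane plate 4 was the highest E7.5 plate for both genes and plate 7 the highest E8.5 plate. On E8.5 plate 1, 99.5% of the Crabp1 reads came from 1 cell, and without it the level was 0.30 CPM in place of 58.1 CPM.

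Neural ectoderm-like cells (cluster 16) had 1747 CPM of Crabp1 and 1673 CPM of Crabp2 at E8.5 (32 cells) and 694.6 and 795.9 CPM at E7.5 (18 cells). On E8.5 plates 7 and 8 Crabp1 was at 2117 and 1040.5 CPM in this cluster and Crabp2 at 1837 and 1328 CPM, so both plates lay above the E7.5 level, which rests on lane plate 4 for 16 of the 18 cells. Surface ectoderm-like cells (cluster 13) had 576.4 and 355.4 CPM at E8.5, and caudal-like cells 268.6 and 352.5 CPM. At E7.5 Crabp1 and Crabp2 differed in the caudal-like cells, with 251.5 CPM (241.2 to 262.2) of Crabp1 and 109.8 CPM (103.01 to 116.96) of Crabp2, and in nascent mesoderm-like cluster 0, with 62 and 7 CPM. Per kilobase the difference in these cells is wider still, since Crabp1 has the shorter exons. Visceral endoderm-like cells at E8.5 had 72.997 CPM of Crabp2 and 2 CPM of Crabp1.

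Of the receptors, Rara was spread over the most clusters. It had reads in all 31 sums and at least 10 CPM in 23 of them. Its E7.5 plates ran from 2.50 through 14.3 to 20.7 CPM and its E8.5 plates from 0.72 through 15.5 to 36.4 CPM. Lane plate 1 was the lowest at E7.5, and plates 1, 2, 5 and 6 were the lowest at E8.5. The highest levels were 50.5 CPM in extraembryonic mesoderm-like cells of cluster 23 (15 cells), 45.4 CPM in neural ectoderm-like and 42.6 CPM in surface ectoderm-like cells, all at E8.5. Without its highest cell, cluster 23 was at 40.7 CPM.

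Rarb, whose promoter holds the repeat shown above, was low, with no read in 9 of the 31 sums and at least 10 CPM in 5. Those 5 were neural ectoderm-like cells at E8.5 (29.4 CPM, 27.4 to 31.6) and E7.5 (15.4 CPM), surface ectoderm-like cells (21.9 CPM) and pharyngeal and cardiac mesoderm-like cells at E8.5 (18.9 CPM) and E7.5 (17.1 CPM). One cell gave 49.8% and 45.8% of the reads in the E7.5 sums of neural ectoderm-like and pharyngeal and cardiac mesoderm-like cells. In neural ectoderm-like cells at E8.5, plates 7 and 8 had 27.4 and 37.4 CPM of Rarb. The E7.5 plates ran from 0.13 through 0.69 to 6.80 CPM, those of E8.5 from 0 through 2.996 to 19.6 CPM. The span of the Rarb gene overlaps that of Top2b on the other strand over 4624 bases, and Top2b had 111.7 CPM over all cells. How much of this overlap is exon was not measured. Reads in any shared exon cannot be assigned to either gene by strand in libraries of this kind.

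Rarg had a different distribution from Rarb. It was highest in caudal-like cells, with 79.4 CPM (73.6 to 85.5) in those of E7.5 and 67.7 CPM (64.9 to 70.7) in those of E8.5, followed by extraembryonic mesoderm- and allantois-like cells of cluster 19 (57.5 CPM), primitive streak-like cells (49.3 CPM), surface ectoderm-like cells (45.1 CPM) and epiblast-like cells (43.2 CPM). Of the epiblast-like cells, 81.4% (73.1% to 87.9%) had a read after thinning, and their level ran from 22.9 to 55.7 CPM over plates. Neural ectoderm-like cells, the highest in Rarb, had 11 CPM of Rarg at both stages. The E7.5 plates ran from 0.37 through 16.97 to 33.3 CPM of Rarg, and the E8.5 plates from 0 through 9.45 to 51.8 CPM, with plate 8 at the top.

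Cyp26a1, the clearing enzyme, was highest in endoderm-like and early mesoderm-like cells of E7.5. The E7.5 plates ran from 1.11 CPM (lane plate 1) through 123.5 CPM to 223.7 CPM (chimera plate 3). The E8.5 plates had 0.48, 1.09, 71.3, 66.4, 0.02, 7.13, 48.3 and 5.51 CPM from plate 1 to plate 8, so the 3 highest E8.5 plates lay among the lower E7.5 plates. Visceral and yolk sac endoderm-like cells (cluster 18) had 454.9 CPM at E7.5 (444.7 to 465.4, 26 cells), with 333.1 CPM in embryo 4 and 764.7 CPM in embryo 5, and 92.3% of them (74.9% to 99.1%) had a read after thinning. At E8.5 the same cluster had 5.4 CPM over 20 cells, 17 of them on plate 1. Definitive endoderm-like cells (cluster 20, whose leading genes also include the notochord gene Noto) had 428.3 CPM (421.2 to 435.5, 44 cells), between 92.5 and 566.9 CPM over 5 plates.

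Nascent mesoderm-like cluster 0, low in Aldh1a2, had 303.5 CPM of Cyp26a1 (300.4 to 306.6), and all of its 5 plates lay between 200.8 and 417.1 CPM. In nascent mesoderm-like cluster 5, high in Aldh1a2, the level was 28.1 CPM, with 4.06, 14.7 and 23.97 CPM on lane plates 4, 5 and 6. Haematoendothelial-like cells of cluster 2 had 259.4 CPM at E7.5 and 64.1 CPM at E8.5, with 64.3 and 69.4 CPM on E8.5 plates 3 and 4. Caudal-like cells had 176.4 CPM at E7.5 and 62.6 CPM at E8.5, and 1 cell gave 50.9% of the E7.5 reads. In extraembryonic mesoderm- and allantois-like cells, cluster 3 had 117.3 CPM at E7.5 and cluster 19 had 72.8 CPM at E8.5, or 18.9 CPM without its highest cell. Epiblast-like cells were at 3.8 CPM and neural ectoderm-like cells at 0.3 and 1.3 CPM at E7.5 and E8.5.

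Source and clearing cells were set side by side over the 31 sums. The sum highest in Aldh1a2 (214.97 CPM) had 17.8 CPM of Cyp26a1, and the sum highest in Cyp26a1 (454.9 CPM) had no Aldh1a2 read. Neural ectoderm-like cells had Aldh1a2 at 40.3 CPM beside 1.3 CPM of Cyp26a1 at E8.5. Caudal-like cells and extraembryonic mesoderm- and allantois-like cells had both, at 40.2 and 62.6 CPM and at 36.5 and 72.8 CPM. In the plots of both genes by cluster these are the points in the upper right, and 1 cell gave 75.5% of the Cyp26a1 reads in cluster 19. Over 26 sums of a class at one stage, which share libraries and differ in depth, the correlation of log2(CPM + 1) between Aldh1a2 and Cyp26a1 was 0.27. The correlation of Aldh1a2 was 0.81 with Crabp1, 0.77 with Stra6, 0.72 with Crabp2, 0.63 with Rarb and -0.23 with Dhrs3. Of 13573 genes compared, those most like Aldh1a2 were Tmem132c (0.89), Ncam1 (0.89), Gli1 (0.89), Lix1 (0.88) and Pknox2 (0.88), and those most like Cyp26a1 were Dsp (0.85), Tbx3 (0.85), Krt8 (0.82), Dgkk (0.82) and Phlda2 (0.81).

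**Figure D3:**
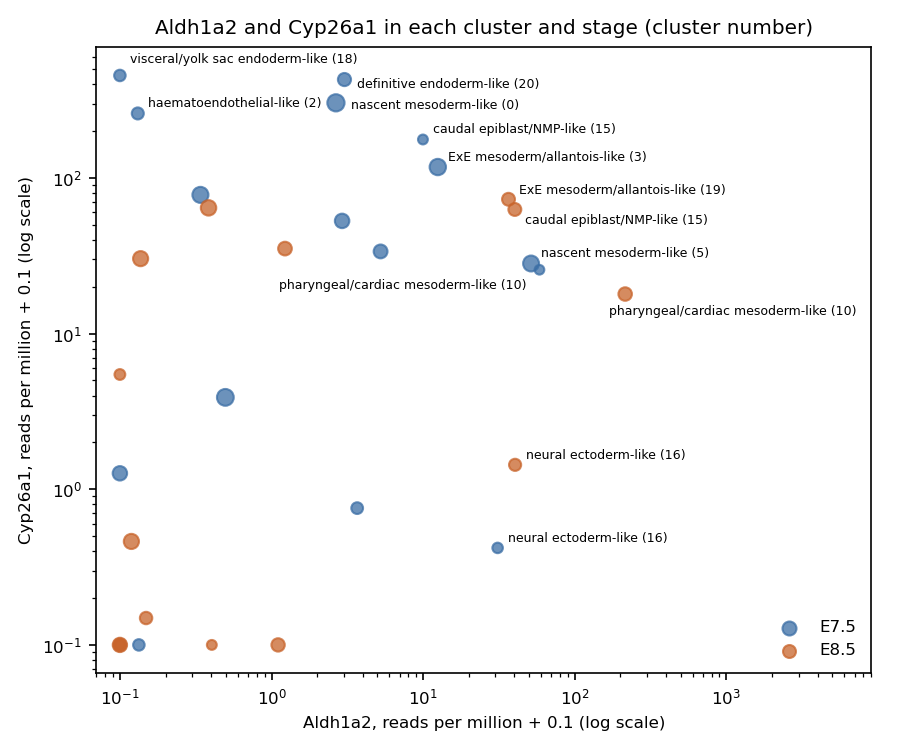
Aldh1a2 (x) against Cyp26a1 (y) in each cluster and stage, both as CPM plus 0.1 on log scales, with E7.5 in blue, E8.5 in orange, larger points for more cells and the cluster number in brackets. Pharyngeal and cardiac mesoderm-like cells lie far to the right at E8.5 (214.97 CPM of Aldh1a2) and endoderm-like and nascent mesoderm-like cells at the top left.

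Single cells with reads of both genes were few. After thinning, 82 E7.5 cells had a read of Aldh1a2 and 41.6% of all E7.5 cells had one of Cyp26a1. The 31 cells with both were 37.8% of the cells with Aldh1a2 and 7.9% of those with Cyp26a1. Among E7.5 cells with no read of Aldh1a2, 41.9% had Cyp26a1. At E8.5, 64 cells had Aldh1a2 and 80 had Cyp26a1. The 16 cells with both were 25% of the former and 20% of the latter, and Cyp26a1 was found in 10.2% of the E8.5 cells with no Aldh1a2. The E8.5 cells with both included 7 of 41 in cluster 19, where 58.3% of cells with Aldh1a2 and 24.1% of the rest had Cyp26a1, and 5 of 41 in cluster 15, where the shares were 45.5% and 20%. In pharyngeal and cardiac mesoderm-like cells at E8.5, 2 of 49 cells had both (9.5% and 14.3%). In nascent mesoderm-like cluster 0 at E7.5, 8 of the 9 cells with Aldh1a2 also had Cyp26a1, as did 84.3% of the rest. Cells of 1 plate are not replicates, so these shares have no test.

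At E8.5, Crabp1, Crabp2, Stra6 and Rarb were found more often in cells with Aldh1a2, and Dhrs3 less often. The shares of Rara and Rarg are not given here. How many of all genes differ in this way was not counted, so it does not set these members apart. Of the 64 E8.5 cells with Aldh1a2, 87.5% had Crabp1 and 87.5% had Crabp2, against 30.6% and 27.7% of the rest. On E8.5 plates 1, 2, 5 and 6, Aldh1a2 was found in at most 2.2%, Crabp1 in at most 10% and Crabp2 in at most 17.4% of cells. The part of cell makeup in these shares was not tested. Stra6 was found in 35.9% of these cells and 5.4% of the rest, and Rarb in 40.6% and 10.4%. Within pharyngeal and cardiac mesoderm-like cells alone, the cluster that holds 21 of the 64, Stra6 was found in 71.4% of cells with Aldh1a2 and in 25% of the rest, and Rarb in 76.2% and 39.3%. Dhrs3 went the other way at E8.5, with 26.6% and 34.2%. At E7.5 the shares for Stra6 were 14.6% and 8.3%, and for Rarb 9.8% and 4.3%.

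**Figure D4:**
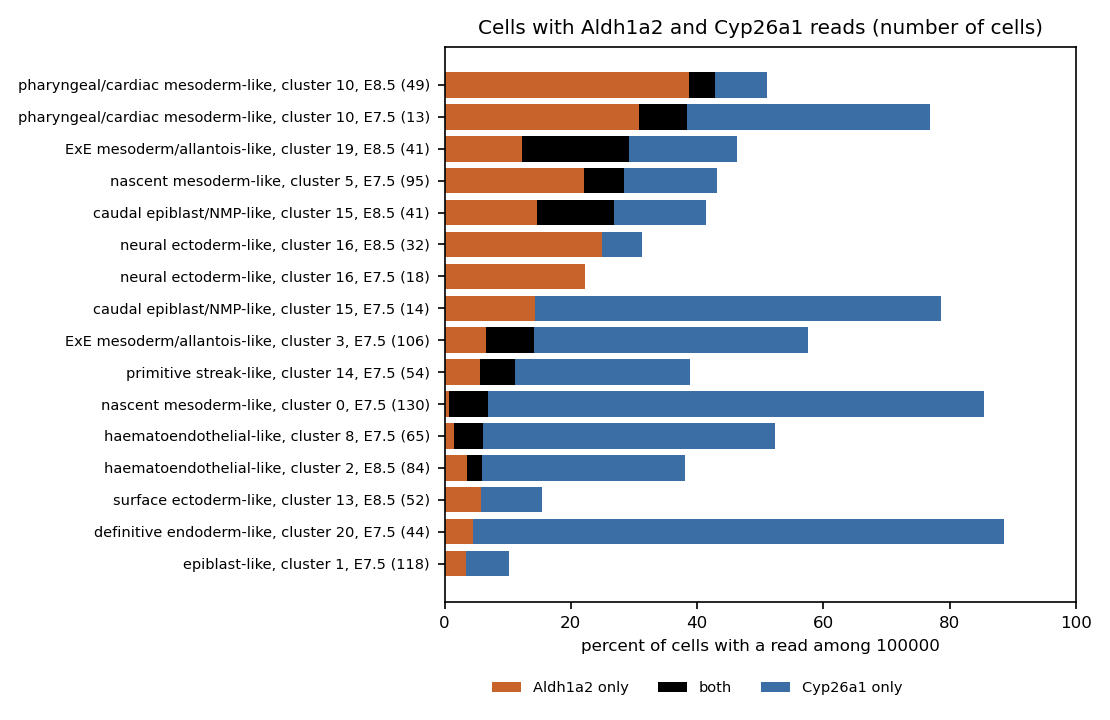
Percent of cells with a read of Aldh1a2 only (orange), Cyp26a1 only (blue) or both (black) after thinning to 100000 reads, in the clusters and stages shown, with the number of cells in brackets. Extraembryonic mesoderm- and allantois-like cells of cluster 19 have 7 of 41 cells with both, and neural ectoderm-like cells have none.

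The only animals named in the labels are 4 E7.5 embryos, numbered 1, 2, 4 and 5, and they allowed a test between cells with epiblast markers and cells with mesoderm markers of the same embryo. A cell entered a gate with at least 3 of 6 markers at 10 CPM or more. The gates held 39, 44, 41 and 24 epiblast-marker cells and 41, 41, 11 and 25 mesoderm-marker cells. Cyp26a1 had 67.3, 111.5, 128.2 and 102.1 CPM in epiblast-marker cells of embryos 1, 2, 4 and 5, and 167.998, 165.1, 138.3 and 179.8 CPM in their mesoderm-marker cells. Crabp1 had 10.7, 8.29, 0.93 and 4.22 CPM in epiblast-marker cells and 42.4, 63.4, 115.6 and 42.8 CPM in mesoderm-marker cells. For both genes the gates did not overlap, and mesoderm-marker cells were higher in 4 of 4 embryos. The share of all tested genes for which this holds was not counted, so it does not set these genes apart.

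By edgeR's quasi-likelihood test with the embryo as a block, at a 1% false discovery rate and a log2 fold change of at least 1, no member was called in either direction. Of 15822 genes, 37 (0.234%) were higher and 21 (0.133%) lower in mesoderm-marker cells. The 8 members tested, Rarb having too few reads, included 3 with an unadjusted p under 0.05, as had 20.3% of all genes tested. In edgeR the log2 fold change of Crabp1 was 3.56 (SE 0.82, adjusted p = 0.0791), that of Cyp26a1 0.71 (SE 0.21, adjusted p = 0.135) and that of Aldh1a2 3.48 (SE 1.30, adjusted p = 0.234). Aldh1a2 was low in both gates, at 0.26, 1.15, 0 and 0 CPM and at 5.02, 2.997, 0 and 1.22 CPM, and was higher with mesoderm markers in 3 of 4 embryos. Dhrs3 had 5.61, 6.14, 4.54 and 0.38 CPM in epiblast-marker cells and 1.30, 1.16, 0 and 0.53 CPM in mesoderm-marker cells, with a log2 fold change of -2.34 (SE 1.23, adjusted p = 0.364 by edgeR). Crabp2, Rara, Rarg and Stra6 had log2 fold changes between -0.20 and 0.15 and overlapping gates. DESeq2 with the same design called Crabp1 (log2 fold change 3.58, adjusted p = 0.000645).

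The epiblast-marker gate also held cells of other kinds. Of its cells, 40 belonged to the extraembryonic ectoderm-like, 15 to the definitive endoderm-like and 3 to the visceral endoderm-like cluster, and the summed level of 8 extraembryonic ectoderm markers in it was 18.4, 50.2, 1872 and 1772 CPM in embryos 1, 2, 4 and 5. In the mesoderm-marker gate that sum was 83.2, 71.5, 415.7 and 193.2 CPM. Without cells of those clusters, an alternative chosen after seeing the data, the epiblast-marker levels of Cyp26a1 were 6.71, 0.48, 7.12 and 7.86 CPM, and the mesoderm-marker levels were 167.998, 165.1, 157.7 and 179.9 CPM. The endoderm-like clusters left out had the highest Cyp26a1 levels at E7.5. A lower epiblast-marker level of Cyp26a1 thus followed from the choice, and its wider gap is no separate support. The gates then held 35, 37, 10 and 8 epiblast-marker cells and 41, 41, 9 and 24 mesoderm-marker cells. In the epiblast-marker cells of embryos 4 and 5, Cyp26a1 rested on 38 and 33 reads and Crabp1 on 22 and 24. The log2 fold change of Cyp26a1 by edgeR was then 5.31 (SE 0.71, adjusted p = 0.0147), and that of Crabp1 was 3.09 (SE 0.49, adjusted p = 0.0237). Both were higher in 4 of 4 embryos and neither passed the 1% limit. In that fit 59 of 14728 genes (0.401%) were higher and 93 (0.631%) lower. Rarg was at 33.03, 58.7, 17.8 and 45.2 CPM in epiblast-marker cells and 15.4, 20.7, 20.6 and 24.3 CPM in mesoderm-marker cells, lower with mesoderm markers in 3 of 4 embryos (log2 fold change -0.86, SE 0.31, adjusted p = 0.177 by edgeR). Stra6, at -0.20 over all gated cells, was at 1.85 (SE 0.96, adjusted p = 0.336 by edgeR).

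**Figure D5:**
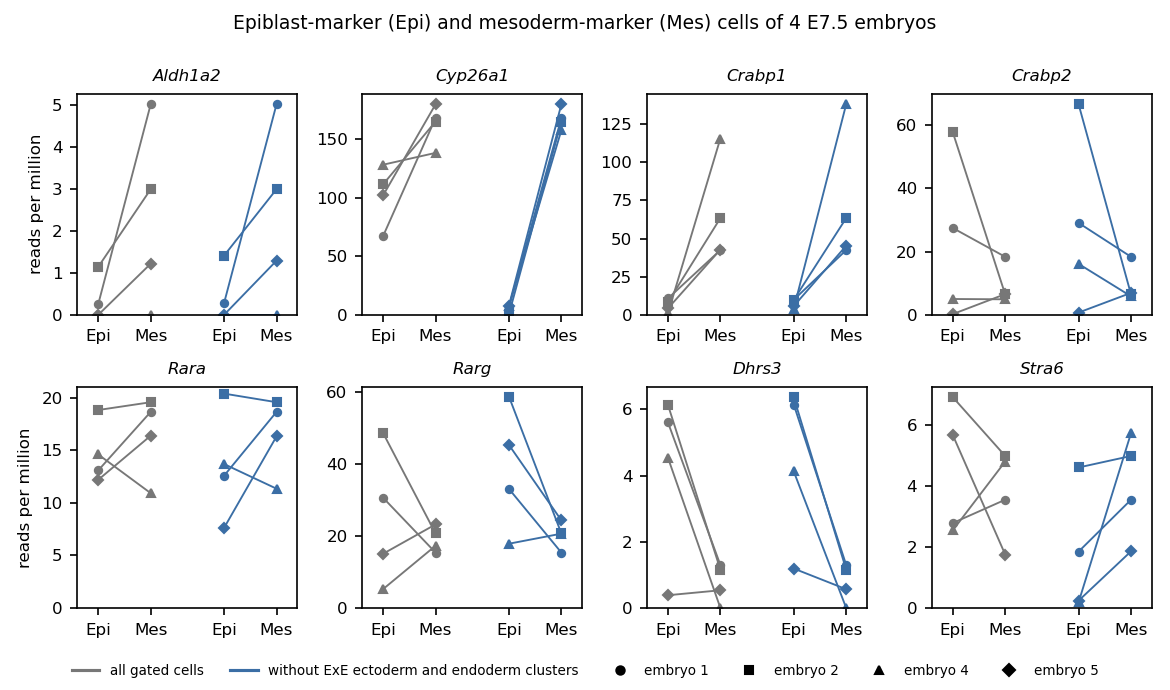
Levels (CPM) of 8 genes in epiblast-marker (Epi) and mesoderm-marker (Mes) cells of E7.5 embryos 1, 2, 4 and 5, each line 1 embryo, in grey for all gated cells and in blue without cells of the extraembryonic ectoderm-like and endoderm-like clusters. The gap for Cyp26a1 widens in blue, where the epiblast-marker cells sit between 0.48 and 7.86 and the mesoderm-marker cells between 157.7 and 179.9. The endoderm-like clusters left out were those highest in Cyp26a1.

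The other genes of the pathway were followed as a list of 21, and known or proposed response genes as a list of 15. At 2-fold between stages, 2 of the 21 pathway genes were higher at E8.5 (7.49% of all genes were) and 1 was lower. The carrier genes Rbp4 and Ttr went from 25.7 to 406.1 CPM and from 103.7 to 422.8 CPM, and the retinoid X receptor gene Rxrg went from 7.99 to 1.02 CPM. Of the 15 response genes, Tgm2 (16.1 and 76.2 CPM) and Nr2f1 (1.27 and 5.57 CPM) were higher and none was lower. Of the response list, Meis2 was at 50.2 CPM and Hoxb1 at 30.97 CPM at E7.5, and Meis2 was at 51.4 CPM at E8.5. The highest pooled levels of the pathway list were those of the co-repressor gene Ncor1 (141.5 CPM), Ttr and the co-activator gene Ncoa3 (85.3 CPM) at E7.5, and of Ttr, Rbp4 and Ncor1 at E8.5.

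By cluster, Aldh1a2 was highest in pharyngeal and cardiac mesoderm-like cells at E8.5. The clearing enzyme Cyp26c1 was highest in the same cluster but at E7.5, with 315.96 CPM at E7.5 and 106.5 CPM at E8.5. One cell gave 71.6% and 36.9% of these reads, the levels without it were 104.4 and 68.4 CPM, and 30.8% and 10.2% of the cells had a read after thinning. Cyp26b1 was highest in haematoendothelial-like cells of cluster 2 at E7.5, with 51.6 CPM, or 21.9 CPM without the cell that gave 58.8% of the reads. Rdh10, which carries out the first oxidation step, had 176.9 CPM in pharyngeal and cardiac mesoderm-like cells at E7.5, of which 1 cell gave 47.4%. Without that cell the level was 100.6 CPM, beside 115.1 CPM in visceral and yolk sac endoderm-like cells. The other enzymes of the second step were low everywhere, at most 1.2 CPM for Aldh1a1 and 7.2 CPM for Aldh1a3 in any sum. Rbp4 and Ttr reached 6728 and 7787 CPM in visceral and yolk sac endoderm-like cells at E8.5. Hoxb1 was highest in caudal-like cells at E8.5, with 203.1 CPM, where Stra6 and Rarg were also high, and nascent mesoderm-like cluster 5 followed with 152.7 CPM. Nr2f1 was highest in neural ectoderm-like cells at E8.5, with 54.04 CPM, the sum that was also highest in Crabp1, Crabp2 and Rarb.

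In the embryo test, 18 pathway genes and 10 response genes could be tested by edgeR. Hoxb1 was called higher in mesoderm-marker cells (log2 fold change 4.82, SE 0.33, adjusted p = 0.00511) and Ttr lower (log2 fold change -7.15, SE 0.34, adjusted p = 0.00471). Ttr was at 5234 CPM in visceral and yolk sac endoderm-like cells at E7.5 and at 0.0099 CPM in epiblast-like cells. The summed level of 7 markers of that endoderm was 2.64, 3.64, 1198 and 12.96 CPM in the epiblast-marker gate of embryos 1, 2, 4 and 5, and 0.84, 1.46, 9.94 and 3.20 CPM in the mesoderm-marker gate. In the epiblast-marker gate of embryo 4 all 7 of these markers had reads, and the part of these cells in the Ttr result was not tested. Neither call held throughout. Without each embryo in turn the adjusted p of Hoxb1 by edgeR was between 0.0165 and 0.0452, with a log2 fold change between 4.598 and 5.01. Ttr passed neither without embryo 1 (adjusted p = 0.0111 by edgeR) nor without embryo 5 (0.0311), did not pass the filter on low counts without embryo 2 or embryo 4, and had an adjusted p of 0.218 by edgeR without the embryo block and 0.068 by DESeq2. It was not tested once endoderm-like cells were left out, and Hoxb1 then had a log2 fold change of 3.90 (adjusted p = 0.0117 by edgeR). In the reported fit no other gene of either list passed. With DESeq2, 6 response genes were called higher and 2 lower, and 2 pathway genes were called higher. With no filter on low counts, 2 response genes and 1 pathway gene were called higher and 1 pathway gene lower. Without the embryo block 2 response genes were called higher, and with thinned cells 2 response genes and 1 pathway gene. These counts take in Hoxb1 and Ttr where they passed.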

How the data were processed

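Single cells of chimaeric embryos were sorted into 96-well plates, polyadenylated RNA was pulled down with oligo-dT beads, and cDNA was made by Smart-seq2, which keeps neither strand nor molecular identifiers. According to the paper, part of the cells went through scNMT-seq, which also reads DNA methylation and accessibility, and the rest through RNA sequencing only. The protocol of a well was not used here, and its part in the stage differences was not tested. The values are whole-number read counts per gene and cell, as deposited by the authors, made with HISAT2 2.1.0 and featureCounts on GRCm38 per the submitters' processing notes and not normalised. Stages come from the labels, and the embryo number (1, 2, 4 or 5) from the sample titles. Genotype and sort gate are not given per cell, so neither was compared. The members and gene lists were chosen with earlier results of these data known.

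Cells with at least 100000 reads, at most 10% mitochondrial and at most 20% ribosomal protein reads were kept. No doublet caller was run, since each library is a sorted well. Cells were clustered with scanpy 1.11.5 in Python 3.11.15 (2000 variable genes, 30 components, 15 neighbours, Leiden resolution 1, seed 0) without the members, 21 pathway genes and 15 response genes, and clusters were named from fixed marker lists. Sums have 95% exact intervals, which cover counting error only. Shares of cells with a read were taken after thinning each cell to 100000 reads.

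The embryo test used edgeR 4.0.16 in R 4.3.3 (TMM, filterByExpr, quasi-likelihood, Benjamini-Hochberg adjustment over all tested genes) on counts summed per embryo and gate, with the embryo as a block. The mesoderm gate used Mesp1, Mixl1, Lefty2, Pdgfra, Snai1 and Hand1, the epiblast gate Utf1, Pou3f1, Fgf5, Pim2, Slc7a3 and Pou5f1, and these 12 genes were left out of the test. Each pair of gates comes from the same animal, and the deviations of its gates correlated at 0.238, 0.181, 0.189 and 0.0894 in embryos 1, 2, 4 and 5. The script was tested on simulated data. DESeq2 1.42.0, other filters, gates and clusterings, and leaving out each embryo or plate were tried as alternatives. Named genes are the members, the listed genes that passed the embryo test, the 3 highest of each list by stage and cluster (1 response gene is not reported here), and the 5 genes nearest in pattern to Aldh1a2 and Cyp26a1.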

Additional observations from a re-analysis of the deposited data

Results flagged for a closer look

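In 4 of 27 groups of values, 1 sample stood apart from the rest by Dixon's criterion. Chance alone meets it in about 1 of 20 groups of independent, normally distributed values. Levels in CPM are not such values, and the genes share the same plates and embryos, so the count cannot be set against that rate. The E7.5 plates were not tried. E8.5 plate 7 was apart from the other E8.5 plates for Aldh1a2 (112.5 CPM, the nearest plate at 29.35 CPM), Crabp1 (916.4 CPM against 273.6 CPM) and Crabp2 (758.3 CPM against 328.8 CPM). One cell gave 33.4% of the Aldh1a2 reads of that plate, and without it the plate was at 75.9 CPM. For Crabp1 and Crabp2 the highest cell gave 19.03% and 14.2%, and the levels without it were 756.9 and 669.3 CPM. In the mesoderm-marker cells, Crabp2 was apart in embryo 1, at 18.4 CPM, where the nearest of the other embryos had 6.55 CPM.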

How the results depend on the processing

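The embryo test depended on its settings, and the cause was not tested. No animal is named at E8.5, so the stages have no replicate check, and Rarb did not pass the filter on low counts in the gates. The fits in embryos 1 and 2 alone and without the extraembryonic ectoderm-like and endoderm-like clusters were chosen after seeing the data.

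The share of tested genes higher in mesoderm-marker cells, 0.234% in the reported fit, was 0.351% with no filter on low counts (35043 genes tested), 3.58% with DESeq2, 0.664% without the replicate block, 0.125% with a marker level of 1 CPM, 1.67% with cells thinned to 100000 reads and 0.401% without cells of the extraembryonic ectoderm-like and endoderm-like clusters. The share lower, 0.133%, was 0.328%, 4.8%, 0.436%, 0.0125%, 1.66% and 0.631% in the same order, 0.0424% with at least 2 of 6 markers and 0.2% in embryos 1 and 2 alone. The embryos pair the gates, and without the replicate block no member was called either. Leaving out each embryo gave between 0% and 0.0958% higher and between 0% and 0.0239% lower.

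The number of members called higher went from 0 to 1 with DESeq2 and with thinned cells, Crabp1 in both (log2 fold changes of 3.58 and 3.36). Members close to 0 changed sign. Crabp2 was at 0.18 with at least 2 of 6 markers, at 0.30 with a marker level of 1 CPM, and between -1.25 and 0.89 when each embryo was left out. Rara was at -0.031 with thinned cells. Rarg was at -0.014 with no filter, -0.022 with DESeq2 size factors, -0.011 with DESeq2, -0.37 without the replicate block, -0.86 without cells of those clusters, -1.11 in embryos 1 and 2 alone, and between -0.57 and 0.46 when each embryo was left out. Stra6 was at 0.72 with at least 2 of 6 markers, at 1.85 without cells of those clusters, and between -0.59 and 0.24 when each embryo was left out. Hoxb1 lost its call when any embryo was left out (adjusted p between 0.0165 and 0.0452 by edgeR), in embryos 1 and 2 alone and without cells of those clusters, and Ttr lost its call in 6 of the 9 alternatives that could test it.

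Between stages, the number of members at least 2-fold higher at E8.5 was between 2 and 6 when each plate was left out, the lowest without E8.5 plate 7. The cells with both Aldh1a2 and Cyp26a1, 31 at E7.5 and 16 at E8.5, were 49 at E7.5 with no thinning, 19 at E7.5 after thinning to 50000 reads, and 9 at each stage when at least 5 reads were required. Other clusterings and the mean over cells were also tried for the level in a member's highest cell class. The limit was the SD over plates around the level, or the counting interval for Dhrs3, whose class had only 1 plate. The level moved beyond this limit in 9 cases, for Rarb (39.4 CPM in place of 29.4 CPM), Rarg (between 53.7 and 92.5 CPM) and Dhrs3 (72.4 and 89.97 CPM).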
